A study of Mus musculus with 4 samples.

Results

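Cancer-associated fibroblasts (CAF) that carried the eGFP reporter but not tdTomato (tdTomato neg eGFP+) were compared with fibroblasts from the same kind of tumor that carried neither reporter (tdTomato neg eGFP neg, called double-negative). Both populations came from Cxcl13-cre-tdTomato x R26R-eGFPflox mice, host strain C57Bl/6, in which B16-F1-OVA melanoma cells, injected there, had grown in the peritoneal cavity for 14 days. Mice of both sexes were used, and their age is not given. CD45 neg CD31 neg PDPN hi cells were sorted by reporter into 4 populations, and each population gave 1 droplet-based single-cell library. Cells were kept when they had 500 to 6000 genes, at most 10% mitochondrial UMIs (unique molecular identifiers, each standing for 1 captured transcript), no *Ptprc* UMI, no *Pax3* UMI and at least 3 UMIs of *Col1a1*, *Col1a2* and *Col3a1* in sum. The rule kept 5745 of 6461 tdTomato neg eGFP+ barcodes and 9866 of 11745 double-negative barcodes, and 21098 of 24489 in the whole series. With 1 library per population there was no replicate and no test. Intervals are 95% intervals for counting error only.

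The *Cxcl13* promoter drives both tdTomato and cre in these mice. Cre removes a stop signal before eGFP, and that change is permanent in the cell and its descendants, so eGFP can outlast promoter activity while tdTomato follows it more closely. CXCL13 draws B cells through their receptor CXCR5 and is made by the stromal cells that organize lymphoid follicles. Double-negative cells may never have used the promoter, or may have used it too little to switch on a reporter. They may also have carried tdTomato at an earlier time without switching on eGFP. The sort does not separate these. The reporter genes are not in the gene list of the files, so the labels could not be checked against reporter transcripts.

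The kept cells held 55742738 UMIs in the tdTomato neg eGFP+ library and 75633344 in the double-negative library. Median depth was 8397 UMIs and 2632 genes per cell in the former, against 5776 UMIs and 2040 genes in the latter. Shares of cells with a UMI are therefore also given after each cell was thinned to 1000 UMIs, which left out 108 and 262 shallower cells. The 2 libraries shared 13 barcodes, 0.201% of the tdTomato neg eGFP+ barcodes and 0.111% of the double-negative ones. At the edge of the collagen rule, 26 and 249 kept cells had exactly 3 UMIs, and 27 and 268 cells left out had 2.

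Fibroblast markers were present in both libraries. *Pdgfra*, a growth factor receptor of fibroblasts, stood at 241 CPM (its UMIs as a fraction of all UMIs of the kept cells, scaled to the same total in each library) in tdTomato neg eGFP+ cells and 175 CPM in double-negative cells. *Dcn*, a small matrix proteoglycan, had a UMI in 83.2% and 84.9% of thinned cells (96.9% and 97.2% as sequenced). In melanoma reference cells of the same libraries, meaning cells with at least 2 *Pax3* UMIs and no *Ptprc* UMI, the thinned *Dcn* share was 7.14% (70 cells, median 22770.5 UMIs) and 17.9% (173 of 174 cells, median of the 174 at 23845.5 UMIs). No member of the lists for lymphocytes, neutrophils, endothelial cells or red blood cells reached a mean of 5 CPM. Their summed levels were 4.02 and 5.83 CPM for lymphocyte genes, 0.466 and 1.59 CPM for neutrophil genes, 11.5 and 12.1 CPM for endothelial genes, and 3.53 and 7.79 CPM for red blood cell genes, tdTomato neg eGFP+ first. Macrophage genes summed to 87.2 and 101 CPM, with *Csf1r* the most abundant, and 0 of the 8 that were measured passed the fold (median log2 fold -0.40). The median was positive at 0.57 in cells with Y-linked transcripts only and 0.09 in cells without a mesothelial-marker UMI. With 1 or 2 such UMIs, 4 of the genes were lower past the fold (median -0.96), where 2.01% of all genes were. In cells with *Xist* only 3 were lower (median -0.59), and in cells with at least 3 mesothelial-marker UMIs 2 were (median -0.72). Of all genes, 3.73% and 1.31% were lower past the fold there.

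*Cxcl13* itself was near equal, with 199 CPM (195 to 202) against 222 CPM (218 to 225) in the double-negative library, a log2 fold of -0.16 (-0.19 to -0.12). Beside these, *Cxcl13* was at 2203 CPM in tdTomato+ eGFP neg and 1123 CPM in tdTomato+ eGFP+ cells. Both tdTomato neg libraries were thus far below both tdTomato+ libraries. A *Cxcl13* UMI was found in 7.93% of thinned tdTomato neg eGFP+ cells and 6.92% of thinned double-negative cells (18.7% and 14.4% as sequenced). Thinned melanoma reference cells had shares of 0 (0 of 70 cells, which allows up to 5.13%) and 1.73%. Thinned immune reference cells had shares of 4.08% and 5.56%, at 51.5 and 443 CPM. The level in double-negative fibroblasts was thus not above that of immune cells. That immune level rested on 55 cells with 275 *Cxcl13* UMIs, of which 1 cell held 131. A small number of cells held much of the transcript: the 1% of cells with most *Cxcl13* carried 46.2% of its UMIs in the tdTomato neg eGFP+ library and 54.3% in the double-negative library. In summed UMIs the direction differed between kinds of cell, with a log2 fold of 0.31 in cells without any UMI of 13 mesothelial markers, -0.66 in cells with 1 or 2 such UMIs and -0.42 in cells with at least 3. Thinned shares in these kinds of cell were 10.6% and 8.12%, 8.72% and 7.47%, and 3.11% and 2.95% (23.2% and 16.1%, 21.0% and 16.5%, and 9.99% and 8.63% as sequenced). In the latter 2 the sums were lower in tdTomato neg eGFP+ cells, while the intervals of the thinned shares overlapped. They were 7.53 to 10.0 and 6.43 to 8.63 with 1 or 2 marker UMIs, and 2.29 to 4.11 and 2.24 to 3.80 with at least 3. With 1 or 2 marker UMIs, 1 double-negative cell held 671 of 5422 *Cxcl13* UMIs. With at least 3, the most in 1 cell was 219 and 182.

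The promoter that drives tdTomato and cre is shown for the 150 bases before the start of *Cxcl13*, from RefSeq on GRCm38.p6 (chr5:95956789-95956938, plus strand). Capitals mark the TATA-box letters TATAAA, which were looked for after the sequence had been seen. These letters occur on either strand in the same window of 8.07% of 27025 mouse promoters.
Cxcl13: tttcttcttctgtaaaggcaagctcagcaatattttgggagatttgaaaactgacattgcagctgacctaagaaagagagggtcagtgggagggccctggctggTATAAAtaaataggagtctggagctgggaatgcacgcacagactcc

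Of 9818 genes with a mean of at least 5 CPM over the 2 libraries, 65 (0.662%) were higher in tdTomato neg eGFP+ cells by a log2 fold of at least 1, called past the fold here, and 261 (2.66%) were lower by as much. Most genes differed little, and 86.7% lay within 0.5 on the log2 scale. The median gene stood at 0.10, and list medians below are to be read against that shift. Past a log2 fold of 0.25 there were 2742 higher and 1219 lower genes. That count was not centred, and the shift of the median gene moves it toward higher genes. It therefore does not show whether the excess of lower genes is limited to large folds. At a log2 fold of 1, more genes were lower than higher in the tdTomato neg eGFP+ library. These are differences in level between 2 libraries with different mixes of cells, and whether any cell lost expression was not tested.

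**Figure D1:**
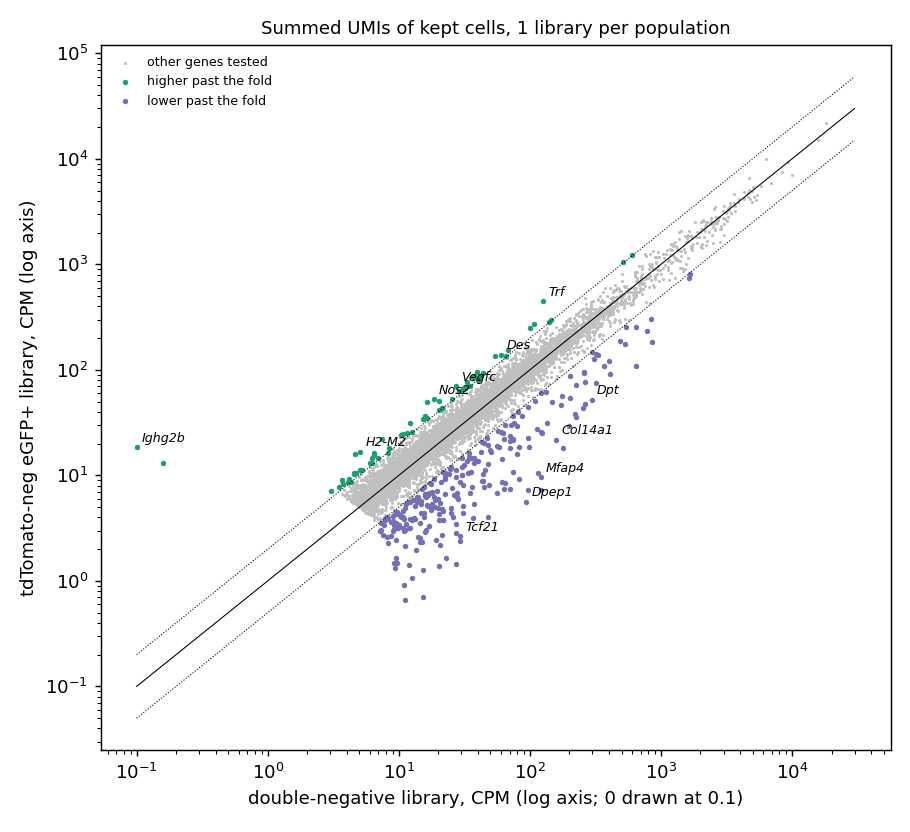
Level of each of the 9818 genes in the double-negative library (x axis) and the tdTomato-neg eGFP+ library (y axis), in CPM on log axes, 1 point per gene, with the line of equal levels and dotted lines at a log2 fold of 1 and -1. The median log2 fold was -1.68 for the 261 genes below the lower dotted line and 1.16 for the 65 above the upper one.

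Among the 15 genes of at least 20 CPM with the highest folds, *Trf* came first. It encodes transferrin, the iron carrier of plasma, and stood at 445 CPM against 127 CPM, a log2 fold of 1.81 (1.78 to 1.85). Its thinned share of 23.4% against 7.64% (53.9% and 24.4% as sequenced) was close to the 20.0% and 8.09% of melanoma reference cells. The share of cells thus does not set it above background. In level, *Trf* was at 143 and 104 CPM in melanoma reference cells and at 474 and 98.2 CPM in immune reference cells. *Cryaa*, a small heat-shock protein best known from the lens, stood at 49.9 against 16.4 CPM (log2 fold 1.60), with thinned shares of 3.83% and 1.17% (16.9% and 5.49% as sequenced). Thinned melanoma reference cells had none, but 0 of 70 allows up to 5.13%, so the thinned share alone does not set it above background. As sequenced, 2.86% of the deeper melanoma reference cells of the tdTomato neg eGFP+ library had a *Cryaa* UMI, at 3.13 CPM. The fibroblasts of that library stood above those melanoma cells in share as sequenced and in level. Its immune reference cells were at 32.0 CPM. *Nos2*, the inducible enzyme that makes nitric oxide, stood at 53.0 against 18.4 CPM, a log2 fold of 1.53. Lymphatic growth factor *Vegfc* stood at 69.6 against 27.3 CPM (log2 fold 1.35). *Col24a1*, a fibrillar collagen chain, was the only 1 of 23 measured collagen chains above the fold, at 248 against 99.4 CPM (1.32). *Gatm*, the first enzyme of creatine synthesis, stood at 134 against 54.6 CPM (1.30). The guidance factor *Sema3a* stood at 95.7 against 39.9 CPM (1.26), and the intermediate filament gene *Des* at 140 against 60.1 CPM (1.22). Others among the highest genes were *Tpbgl*, *Cmss1*, *Aplp1*, *Tmem108*, *Tango6* and *Cap2*. Secreted and enzyme genes with different roles thus made up the higher end, and no list had most of its members there.

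*Dpep1*, a membrane dipeptidase, was at 5.63 CPM in tdTomato neg eGFP+ cells and 93.7 CPM in double-negative cells, a log2 fold of -4.06 (-4.22 to -3.89). *Pi16*, which marks fibroblasts shared by many tissues (universal fibroblasts), was at 7.34 and 121 CPM (-4.04), with a UMI in 1.05% and 11.9% of thinned cells (3.03% and 26.3% as sequenced). Melanoma reference cells had thinned *Pi16* shares of 0 and 1.73%. The *Pi16* share of double-negative cells thus stood above this background. *Mfap4*, an elastic-fiber protein, was at 9.65 and 121 CPM (-3.64). The small proteoglycan *Aspn* was at 9.29 and 82.2 CPM (-3.14), and *Lama2*, a laminin chain of basement membranes, at 8.43 and 64.7 CPM (-2.94). *Col14a1*, a fibril-associated collagen chain, was at 21.8 and 159 CPM (-2.87). The sodium channel gene *Scn7a*, the procollagen C-proteinase enhancer *Pcolce2*, the protease *Pcsk5* and the membrane protein *Tmem100* were also among the 15 lowest. The 5 others of the 15 were *Mlana*, *Dct*, *Ptgds* and *Pmel*, which melanoma cells make, and the histone gene *H2ac24*.

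Universal fibroblast markers were widely lower in tdTomato neg eGFP+ cells, with 10 lower and 0 higher past the fold of 19 measured (median log2 fold -1.12, against 0.10 for all genes). *Dpt*, a dermatopontin matrix protein, was at 51.9 CPM in tdTomato neg eGFP+ and 296 CPM in double-negative cells (-2.51). *Clec3b*, which encodes tetranectin, was at 108 and 368 CPM (-1.77). *Ly6a*, the most abundant member, was at 1661 and 2237 CPM (-0.43) and not past the fold. Cells with a UMI of *Pi16*, *Dpp4* or *Clec3b* after thinning were 11.2% (10.4 to 12.0) of tdTomato neg eGFP+ cells and 32.9% (31.9 to 33.8) of double-negative cells. The same share was 1.43% and 6.36% in melanoma reference cells. In immune reference cells (at least 2 *Ptprc* UMIs and no *Pax3* UMI, median depth 10973 and 8707 UMIs) it was 6.12% and 11.1%. For these 3 genes, the tdTomato neg eGFP+ share lay inside the interval of its own immune reference (1.28 to 16.9). The double-negative share lay above that of its own (4.19 to 22.6). Mesothelial markers, which the cells lining the peritoneum carry, had 0 higher and 1 lower of 13 past the fold (median 0.39). *Wt1*, a transcription factor of mesothelium, was at 234 and 133 CPM (0.81), and *Krt18*, a keratin of simple epithelia, at 62.2 and 133 CPM (-1.09). Cells with at least 3 mesothelial-marker UMIs after thinning were 26.8% (25.7 to 28.0) and 20.1% (19.3 to 21.0). That share was 1.43% and 1.16% in melanoma reference cells but 20.4% and 27.8% in immune reference cells, so the double-negative share was not above the latter, and the tdTomato neg eGFP+ share lay inside the interval of its own immune reference (10.2 to 34.3). Of 11 sort and general fibroblast markers, 1 was higher and 2 were lower past the fold (median -0.19, and 0.19 in mesothelial-marker cells). *S100a4*, a calcium-binding protein, was at 1216 and 602 CPM (1.01), and *Lum*, a corneal and connective tissue proteoglycan, at 35.7 and 224 CPM (-2.65). *Pdpn*, the sort marker, was at 308 and 218 CPM (0.50).

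Transcription factors that set fibroblast identity differed in part. Of 33 measured positional and lineage factors 0 were higher and 5 were lower past the fold (median -0.01, positive when cells were weighted equally or thinned, 0.14 in mesothelial-marker cells and 0.03 in cells with Y-linked transcripts only). *Tcf21* was at 2.65 and 29.4 CPM (-3.47), *Ebf2* at 3.44 and 27.2 CPM (-2.98) and *Ebf1* at 75.0 and 321 CPM (-2.10). *Zeb1*, which represses epithelial genes, was at 31.5 and 75.3 CPM (-1.26). The factors named here were thus lower in the tdTomato neg eGFP+ library, while 15 of the 33 stood above 0. *Zeb2*, the most abundant of the list, had a log2 fold of -0.004.

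Chemokines that guide leukocytes had 0 higher and 2 lower past the fold of 18 measured (median -0.09, but 0.06 in cells with Y-linked transcripts only and 0.09 in mesothelial-marker cells). *Ccl11*, which attracts eosinophils, was at 43.2 CPM in tdTomato neg eGFP+ cells and 254 CPM in double-negative cells (-2.55). *Cxcl9*, an interferon-induced attractant of T cells, was at 301 and 841 CPM (-1.48). *Ccl2*, which attracts monocytes and was the most abundant of the list, was at 3361 and 2530 CPM (0.41). Other CXCR3 ligand *Cxcl10* was at 1258 and 823 CPM (0.61), opposite in sign to *Cxcl9*. Genes by which stroma organizes lymphoid tissue had 0 higher and 3 lower of 13 (median 0.04, but -0.11 as a mean over cells, and also below 0 after thinning, after centring on the median gene, with TMM factors, and in cells with *Xist* only, without a cycling UMI or with mesothelial markers). *Ccl19*, which guides T cells and dendritic cells, was at 10.8 and 74.5 CPM (-2.79). *Cxcl12*, which retains leukocytes in stroma, was at 175 and 531 CPM (-1.61), beside 610 and 531 CPM in the tdTomato+ eGFP neg and tdTomato+ eGFP+ libraries. *Tnfsf13b*, the B cell survival factor BAFF, was at 5.40 and 11.4 CPM (-1.08). The adhesion molecule *Vcam1* was at 464 and 355 CPM (0.39). The T cell and B cell factors that passed the fold were thus lower in tdTomato neg eGFP+ cells.

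Cytokines and growth factors had 2 higher and 5 lower past the fold of 37 (median -0.10). The 2 higher were *Vegfc* and the secreted signal *Wnt4*, at 281 and 140 CPM (1.01). The lower ones included *Hgf*, at 3.07 and 16.2 CPM (-2.40), *Fgf7*, at 6.84 and 27.8 CPM (-2.03), and *Fgf10*, at 3.44 and 11.4 CPM (-1.73). All of these act on epithelial cells. *Igf1*, a growth factor for many tissues, was at 254 and 650 CPM (-1.35). *Vegfa*, the main angiogenic factor, was at 167 and 96.0 CPM (0.80), short of the fold. Receptors for cytokines and growth factors had 0 higher and 1 lower of 34 (median 0.06, below 0 after centring, with TMM factors and in cells with *Xist* only), the lower one being *Lifr* at 10.4 and 24.2 CPM (-1.22). NF-kB pathway genes had 0 past the fold in either direction of 19, but all 19 stood above 0 in the sum over all cells, against 65.9% of all genes (median 0.31). *Nfkb1* was at 334 and 226 CPM (0.57).

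Matrix genes showed a mixed picture. Collagen chains had 1 higher and 3 lower of 23 (median 0.01, below 0 after centring, with TMM factors and with totals free of mitochondrial and ribosomal protein genes). The median was -0.28 in cells with *Xist* only, -0.13 in cells with Y-linked transcripts only and 0.33 in mesothelial-marker cells. Chains past the fold thus went both ways, and so did the median. Other matrix genes had 1 higher and 12 lower of 47 (median -0.43, and 0.03 in mesothelial-marker cells). *Postn*, a matricellular protein of remodeling tissue, was at 76.2 CPM in tdTomato neg eGFP+ and 264 CPM in double-negative cells (-1.79). *Tnc*, made at sites of injury, was at 147 and 298 CPM (-1.02). *Fn1*, the fibronectin gene and most abundant of the list, was at 2028 and 1370 CPM (0.57). *Igfbp3*, an IGF carrier, was the list member above the fold, at 87.9 and 42.6 CPM (1.05). Proteases and their inhibitors had 0 higher and 5 lower of 23 (median -0.26, and 0.11 in mesothelial-marker cells), among them the gelatinase *Mmp2* at 22.5 and 97.1 CPM (-2.11). Contractile genes had 1 higher and 2 lower of 17 (median -0.09, just above 0 when cells were weighted equally and in cells with *Xist* only). *Mylk*, the myosin light chain kinase, was at 19.0 and 56.0 CPM (-1.56), while *Acta2* was at 548 and 675 CPM (-0.30). *Des* was also the higher 1 of 2 measured pericyte and smooth muscle genes (median 0.30, and -0.19 in cells with *Xist* only).

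Antigen presentation lists had medians above that of all genes. MHC class II genes had 0 past the fold of 8 measured, and all 8 were above 0 in the sum over all cells, as were 65.9% of all genes (median 0.46, and 0.11 in mesothelial-marker cells). *Cd74*, the invariant chain, was at 1862 and 1520 CPM (0.29). MHC class I genes had 2 higher and 0 lower of 23 (median 0.45). *H2-M2*, a nonclassical class I gene, was at 16.8 and 5.06 CPM (1.73), and *H2-Q7* at 1050 and 516 CPM (1.03). Interferon-stimulated genes had 0 higher and 1 lower of 46 (median 0.23), the lower being *Ifitm1* at 56.9 and 176 CPM (-1.63). Co-inhibitory and costimulatory ligands had 0 past the fold of 10 (median 0.10), complement genes 0 of 10 (median 0.09) and immediate early genes 0 of 25 (median 0.10), and all 3 medians fell just below 0 after centring. The complement median was also below 0 after thinning and in cells without a mesothelial-marker UMI, that of immediate early genes after thinning, and that of the ligands in cells without a cycling UMI. Junction and adhesion genes had 0 of 26 past the fold (median 0.40), and the count depended on the kind of cell. In cells without a mesothelial-marker UMI 11 of the 26 were higher (median 0.75), where 2.26% of all genes were higher and 3.28% lower past the fold. In cells with neither mesothelial nor universal markers 5 were higher (median 0.60), and in mesothelial-marker cells 0 (median 0.05). Of all genes, 1.55% and 0.48% were higher past the fold there. Hypoxia and glycolysis genes had 0 of 31 past the fold (median 0.25). Cell cycle genes had 1 higher of 26 (median 0.19), the cell cycle inhibitor *Cdkn2a*, at 34.5 and 15.4 CPM (1.17). Retinoid genes had 1 higher and 2 lower of 13 (median -0.03, and 0.07 in cells with Y-linked transcripts only). *Aldh1a2*, which makes retinoic acid, was at 126 and 307 CPM (-1.29), and *Rbp4*, which carries retinol, at 23.7 and 70.9 CPM (-1.58). The 4 sex-linked marks that were measured had 0 past the fold (median 0.33). Yet cells with Y-linked transcripts only were 30.0% (28.8 to 31.2) of tdTomato neg eGFP+ and 19.9% (19.1 to 20.7) of double-negative cells. Cells with *Xist* only were 23.3% (22.2 to 24.4) and 25.5% (24.6 to 26.3). These shares were taken without thinning, so depth also enters them.

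**Figure D2:**
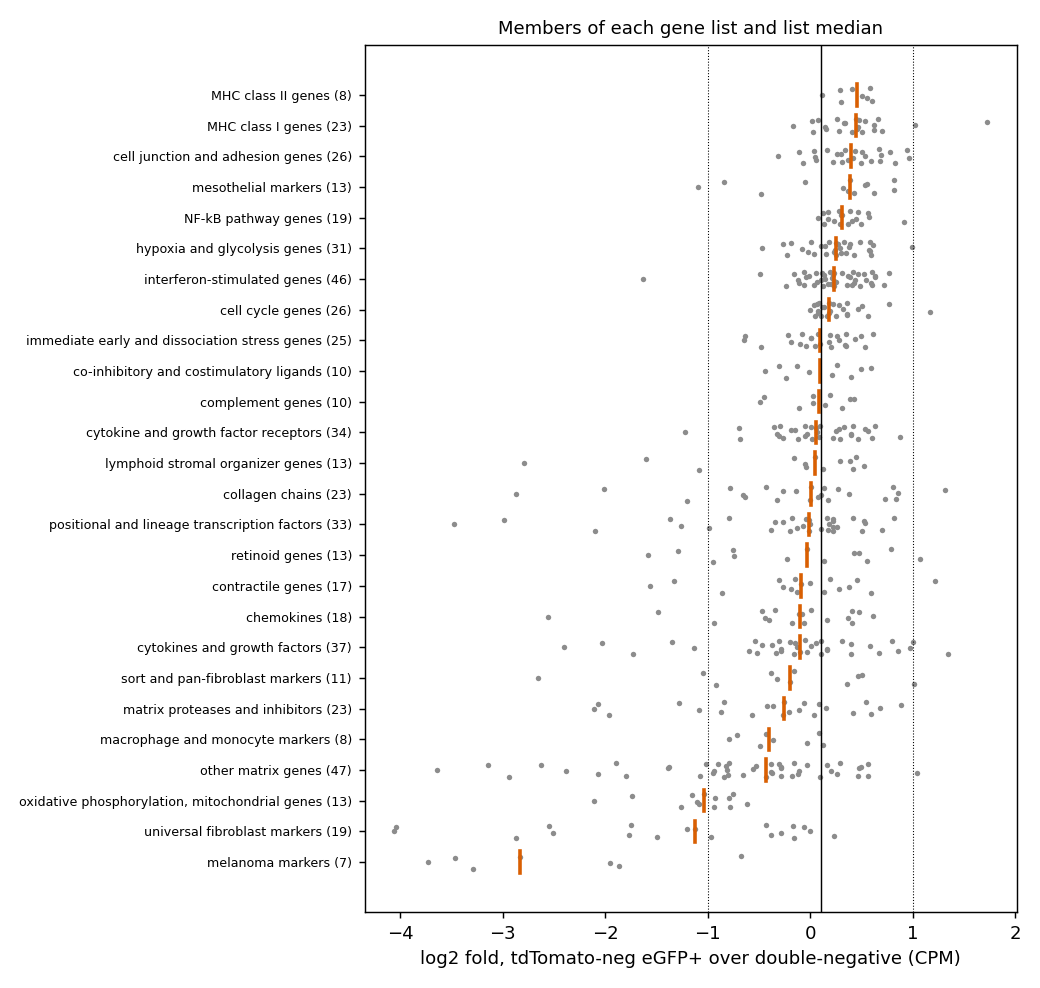
Log2 fold of tdTomato-neg eGFP+ over double-negative cells for each measured member of the gene lists with at least 5 measured members (grey points), with each list's median (orange) and the median of all 9818 genes (solid line at 0.10). Dotted lines mark a log2 fold of 1 and -1, and the median of universal fibroblast markers lies at -1.12.

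The populations hold different mixes of cells, so the folds were also taken within ranges of marker counts and within cells of 1 sex mark. In mesothelial-marker cells (1512 and 1935 cells), 47 of 9800 genes (0.48%) were higher and 128 (1.31%) lower past the fold. In cells with no mesothelial-marker UMI and no UMI of *Pi16*, *Dpp4* or *Clec3b* (1947 and 3256 cells), 150 of 9666 genes (1.55%) were higher and 212 (2.19%) lower. Cells with *Xist* and no Y-linked UMI (1338 and 2512 cells) had 101 higher (1.02%) and 369 lower genes (3.73%) of 9887. Cells with a Y-linked UMI and no *Xist* (1723 and 1961 cells) had 56 higher (0.569%) and 198 lower genes (2.01%) of 9849. Of the 261 lower genes, 120 (46.0%) were also lower past the fold in each of 6 ranges and marks, against 11 of the 65 higher genes (16.9%). The 6 overlap and are parts of the cells that gave the calls, so they are not separate checks. Genes that define a range were counted within it here. The higher genes lay nearer the cut, with a median log2 fold of 1.16 against -1.68. From 62 to 64 of the 65 higher genes stood above 0 in each of the 6, and from 254 to 261 of the lower genes below 0. *Dpep1* had a log2 fold of -4.85 in mesothelial-marker cells and -3.19 in cells with neither marker. For *Mfap4* the folds were -4.77 and -3.13, and for *Trf* 2.02 and 1.72. These genes kept large folds in cells with and without mesothelial markers. The median of universal markers was -0.41 in mesothelial-marker cells, -1.39 in cells without a mesothelial-marker UMI, -0.46 in cells with neither marker (which were chosen for having no UMI of 3 of these genes), -1.32 in cells with *Xist* only and -0.58 in cells with Y-linked transcripts only. *Aldh1a2*, *Igf1*, *Lifr*, *Zeb1*, *Tnfsf13b* and *Clec3b* were not past the fold in mesothelial-marker cells, nor were *Sema3a*, *Tpbgl*, *Aplp1*, *Tmem108*, *Tango6* and *Cap2* among the highest genes.

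**Figure D3:**
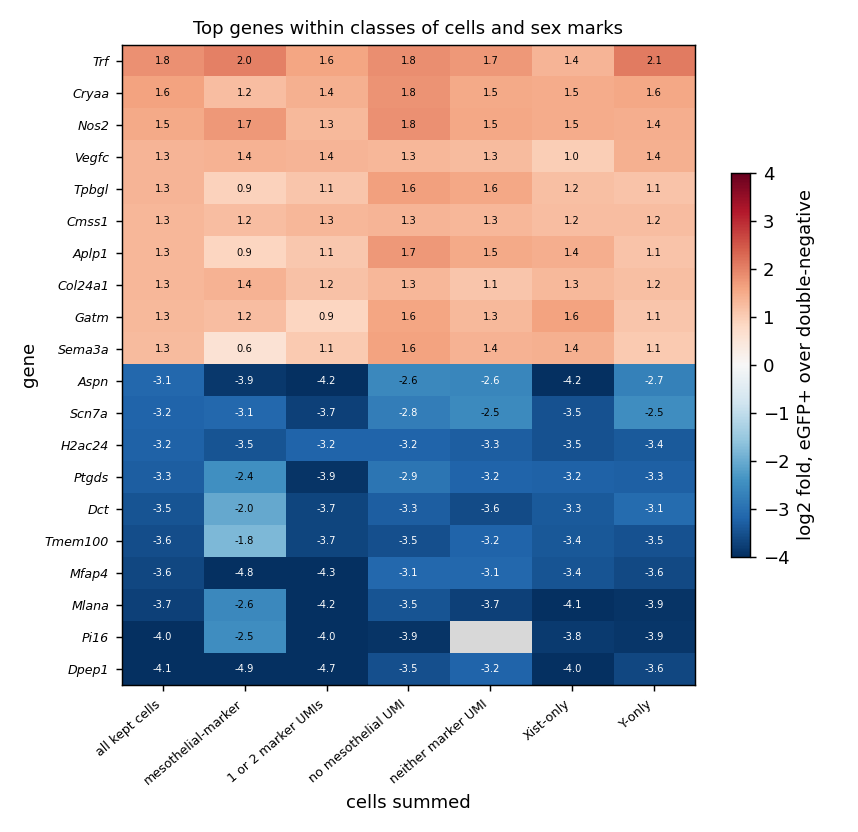
Log2 fold of tdTomato-neg eGFP+ over double-negative cells for the 10 highest and 10 lowest genes (vertical axis), over all kept cells and within ranges of mesothelial-marker UMIs, cells with neither mesothelial nor universal markers, and cells of 1 sex mark (horizontal axis). Each cell of the grid gives the value, and grey marks a gene that defines the range (Pi16).

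Levels in the tdTomato+ libraries stood as follows. Of the 65 higher genes, 30 were highest of the 4 libraries in tdTomato neg eGFP+ cells. Another 22 were highest in tdTomato+ eGFP neg and 13 in tdTomato+ eGFP+ cells. Of the 261 lower genes, 181 were lowest in tdTomato neg eGFP+, 12 in tdTomato+ eGFP neg and 68 in tdTomato+ eGFP+ cells. *Trf* was at 756 CPM in tdTomato+ eGFP neg and 744 CPM in tdTomato+ eGFP+ cells, above the tdTomato neg eGFP+ level. *Dpep1* was at 15.1 and 6.49 CPM in these libraries, and *Ccl19* at 40.2 and 19.9 CPM.

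Several measures moved with the comparison, and their part in it was not tested. The 7 measured melanoma markers had 6 lower and 0 higher past the fold (median -2.83). All 11 members of that list summed to 62.0 CPM in tdTomato neg eGFP+ and 500 CPM in double-negative cells, with *Ptgds* the most abundant. A UMI of *Pmel*, *Mlana*, *Tyr*, *Tyrp1* or *Dct* was found in 12.4% and 23.8% of kept cells, and more than 2 such UMIs in 21 cells (0.366%) and 206 cells (2.09%). Without those cells, the median of the other measured markers of the list was -0.95. The genes that were counted to pick the cells were left out of that median. It therefore covers fewer genes than -2.83 and cannot be set against it. Over all kept cells *Ptgds* had a log2 fold of -3.29 and *Gpnmb* -1.86, and the highest member of the list stood at -0.67. Mitochondrial transcripts had 7 lower of 13 (median -1.04, and -0.68 as a mean over cells, where *mt-Co1*, *mt-Cytb*, *mt-Nd3*, *mt-Nd4* and *mt-Nd5* were no longer past the fold) and summed to 4968 and 9245 CPM, beside 10976 CPM in tdTomato+ eGFP neg and 5283 CPM in tdTomato+ eGFP+ cells. In melanoma reference cells the mitochondrial sum was in the other direction, at 30159 and 22819 CPM. The following genes were chosen after their values were seen. *Gm10076*, a predicted gene, was lower by about the same fold in fibroblasts (-2.20) and in melanoma reference cells (-2.29). *Gstp1* behaved likewise (-2.10 and -1.93). The lower level of these 2 genes was therefore seen in both kinds of cell of the tdTomato neg eGFP+ library. Of 107 lower genes with a mean of at least 5 CPM in melanoma reference cells, 41 (38.3%) were also lower past the fold there. Of 25 such higher genes 9 (36.0%) were also higher. Over all 9488 genes at that level, 1.82% were lower and 2.22% higher. Some members reached that mean only through the library where they were high, such as *Pi16* (0 and 16.5 CPM) and *Dpep1* (0 and 13.2 CPM). The filter thus favored agreement, so no conclusion is drawn from these counts. *Ighg2b*, an antibody heavy chain gene, had 1033 UMIs in the tdTomato neg eGFP+ library, of which 1026 were in 1 cell, and 0 in the double-negative library. *Ighg3* had 726 UMIs, of which 720 were in 1 cell, against 12. *Ighg2c* had 731 UMIs, of which 428 were in 1 cell, against 457, of which 292 were in 1 cell. These 3 were among the 65 higher genes. No other of the 326 genes past the fold had at least 20% of its UMIs in 1 cell of the library where it was higher. Calls close to the fold depended on scaling: *S100a4*, *Wnt4*, *H2-Q7* and *Igfbp3* fell below it after centring, and *Tnc* and *Krt18* after thinning. Differences between the populations cannot be told apart from differences between the 2 libraries.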

How the data were processed

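The files hold UMI counts per gene and barcode, deposited by the authors for 4 libraries, 1 per sorted population. Per the labels the authors used Cell Ranger 10.0.0, STAR and Seurat 5.0 with GRCm39, while the file headers name Cell Ranger 8.0.0. Counts were summed over kept cells and scaled to CPM of all UMIs, with exact Poisson intervals, exact conditional intervals for folds and Clopper-Pearson intervals for shares. A gene at 0 in 1 library stood at a bound of 3 counts. Genes named are *Cxcl13*, members of 32 lists, and the 15 highest and 15 lowest folds at a mean of at least 20 CPM, without sex-linked, mitochondrial and unnamed genes. The others (*Gm10076*, *Gstp1*, *Ighg2b*, *Ighg3*, *Ighg2c*, *Ctla2a*) were chosen after their values were seen. Members and lists were chosen with earlier results of these data known. Some genes are not reported here. Thinning used seed 1. Scrublet called 0 and 1 cells and so did not work here, and the highest-scoring share expected from loading was removed as an alternative. A comparison of promoter motifs between gene sets was void, because 69.2% of higher and 67.8% of lower genes had a promoter in the reference, under the 80% needed. Calculations were tested on simulated data. Tools were edgeR 4.0.16 in R 4.3.3, and scanpy 1.11.5, pandas 2.3.3, matplotlib 3.10.9, scipy 1.17.1 and numpy 2.4.6 in Python 3.11.15.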

Additional observations from a re-analysis of the deposited data

Results flagged for a closer look

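The log2 fold of *Cxcl13* was -0.28 in cells with *Xist* only and 0.44 in cells with Y-linked transcripts only. That of *Ctla2a*, a gene chosen after its values were seen, was 0.48 and -3.04, and over all kept cells 1 cell held 14.2% of its UMIs in the tdTomato neg eGFP+ library and 1 cell 13.5% in the double-negative library. Both stand out because the sign was opposite in cells of the 2 sex marks, with each counting interval off 0. The difference between the marks was not tested. For *Cxcl13*, 1 double-negative cell with *Xist* only held 671 of 6263 UMIs, and 1 with Y-linked transcripts only held 408 of 2776. In cells with *Xist* only, thinned *Cxcl13* shares were 7.61% in tdTomato neg eGFP+ and 7.87% in double-negative cells (23.2% and 17.4% as sequenced). With Y-linked transcripts only they were 7.77% and 4.77% (18.6% and 13.6% as sequenced).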

How the results depend on the processing

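No paired analysis was possible because each population is 1 library. Of 1463 log2 folds of 92 genes past the fold (list members and the highest and lowest genes) over 16 alternatives, 1461 had the sign of the main value and 1351 stayed past the fold, while 112 did not. With at least 10 collagen UMIs *S100a4* fell to 0.98 and *Wnt4* to 0.97, and as a mean over cells *Igfbp3* fell to 0.87 and *Tnc* to -0.73. After centring *H2-Q7* stood at 0.92, *S100a4* at 0.91 and *Wnt4* at 0.90. In mesothelial-marker cells *Fap* reversed to 0.16 and *Fbln5* to 0.21, and the cause was not tested.

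The log2 fold of *Cxcl13* moved to -0.19 with at least 10 collagen UMIs, -0.11 as a mean over cells, -0.26 after centring, -0.22 with TMM factors and -0.059 without the expected share of doublets. It was -0.28 in cells with *Xist* only, 0.44 with Y-linked transcripts only, 0.31 without a mesothelial-marker UMI, -0.42 in mesothelial-marker cells and 0.39 in cells with neither marker.

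Against 65 higher and 261 lower genes (19.9% higher), there were 135 and 353 as a mean over cells, 172 and 352 after thinning (32.8% higher), and 41 and 298 after centring. TMM factors gave 49 and 288. Counts were 101 and 369 in cells with *Xist* only, 138 and 378 in cells without a cycling UMI, 220 and 320 without a mesothelial-marker UMI (40.7% higher), 47 and 128 in mesothelial-marker cells, and 150 and 212 with neither marker (41.4% higher). A mean of at least 20 CPM gave 36 and 112, at least 1 UMI in each library 1289 and 2356, and a log2 fold past 0.25 gave 2742 and 1219 (69.2% higher). Removing Scrublet calls left 65 and 261, and removing the expected doublets 65 and 262.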
